A study of Danio rerio with 12 samples.

Results

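The splicing factor and hnRNP genes described here are those whose symbol in the array annotation begins with snrp, sf3a or sf3b, srsf, hnrnp, prpf, lsm and a digit, or u2af. They comprise 100 of the 15502 probe sets analysed and 76 genes. Of these genes 60 had 1 probe set and 16 had several, up to 4. They were drawn from 27 probe sets named hnrnp, 17 named lsm, 16 named srsf, 14 named prpf, 12 named sf3a or sf3b, 11 named snrp and 3 named u2af. Only probe sets with 1 gene symbol were taken, so 1 further probe set that also carries the name of another gene was left out.

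Transcript abundance was measured on Affymetrix zebrafish arrays in 4 groups of 3 arrays each. They were the ovary, the testis, and the bodies of females and males from which the gonads had been removed (called female body and male body). All groups came from wild-type adults of the AB strain, aged 4 to 12 months, which per the study's methods were full siblings. The fish had spawned in pairs and the sexes were then kept apart for 5 days before dissection. Each gonad and each body came from 1 fish, per the labels, and germ cells and gonadal somatic cells of a gonad, or all other organs of a body, were mixed. The values are GCOS signals, the summary intensity of a probe set, which the authors scaled to the same trimmed mean on every array.

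Introns are removed from new transcripts by the spliceosome, which is built from small nuclear ribonucleoproteins (snRNPs). The U1 snRNP marks the start of an intron, U2AF and the U2 snRNP with its SF3a and SF3b subunits mark its end and branch point, and the tri-snRNP of U4, U6 and U5, which carries many PRPF proteins, brings the catalytic core. Each of the U1, U2, U4 and U5 RNAs is held in a ring of Sm proteins, and U6 in a ring of LSm proteins. SR proteins (srsf genes) mostly favour the use of exons they bind, many hnRNP proteins oppose it, and germ cells of both sexes are known for distinctive splicing and for storing transcripts.

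Each gene's level was compared only with its own level in other groups, since signals of different probe sets are not on 1 scale. Signals were set to a floor of 32 and log2 transformed, and pairs of groups were compared with limma. A member is called higher or lower where the p-value adjusted over all probe sets tested was under 0.05. No member lay at the floor on all 12 arrays, but the share of members at or below it was 6% to 9% on the ovary arrays and 1% to 4% on the others. Among all probe sets that share was 33.0% to 35.7% on the ovary arrays, whose median signal of 103 to 129 was below that of the other groups (184 to 208). In whole tissues like these, fewer cells of a type and less RNA per cell cannot be told apart.

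The tissue labels were checked against marker genes that are not members. The summed signal of 8 ovary markers, egg coat and oocyte genes, was 79712 to 85734 on the ovary arrays and 837 to 1142 in the testis. The summed signal of 8 testis markers was 40465 to 42331 in the testis and 329 to 1086 on the other arrays. The male body arrays had ovary marker sums of 241 to 616, but the female body arrays had 64618, 44493 and 31147 on arrays 1, 2 and 3, with no ovary marker at the floor in the group. Summed muscle, liver and nerve markers were highest in the body arrays of both sexes. The nerve marker elavl4 alone was higher in testis (169 to 199) than in female body (85.5 to 164). Liver sums were 2705 to 6760 in testis and 181 to 218 in ovary, and muscle sums 1748 to 2075 and 166 to 179. The part of body RNA on the testis arrays was not tested.

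Members were brightest in the gonads. The median member signal was 1308 to 1477 on the testis arrays, 1162 to 1296 on the ovary arrays, 855 to 1016 in female body and 599 to 612 in male body. By group mean, 43 of the 100 member probe sets were highest in testis, 39 in ovary, 15 in male body and 3 in female body, where for all probe sets these shares were 25.6%, 27.7%, 43.2% and 3.54%. The male body was the lowest group for 59 members and the ovary for 31, against 25.6% and 49.4% of all probe sets. The order testis, ovary, female body, male body was the most frequent and was held by 24 members. A second order, ovary, female body, testis, male body, was held by 18.

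**Figure D1:**
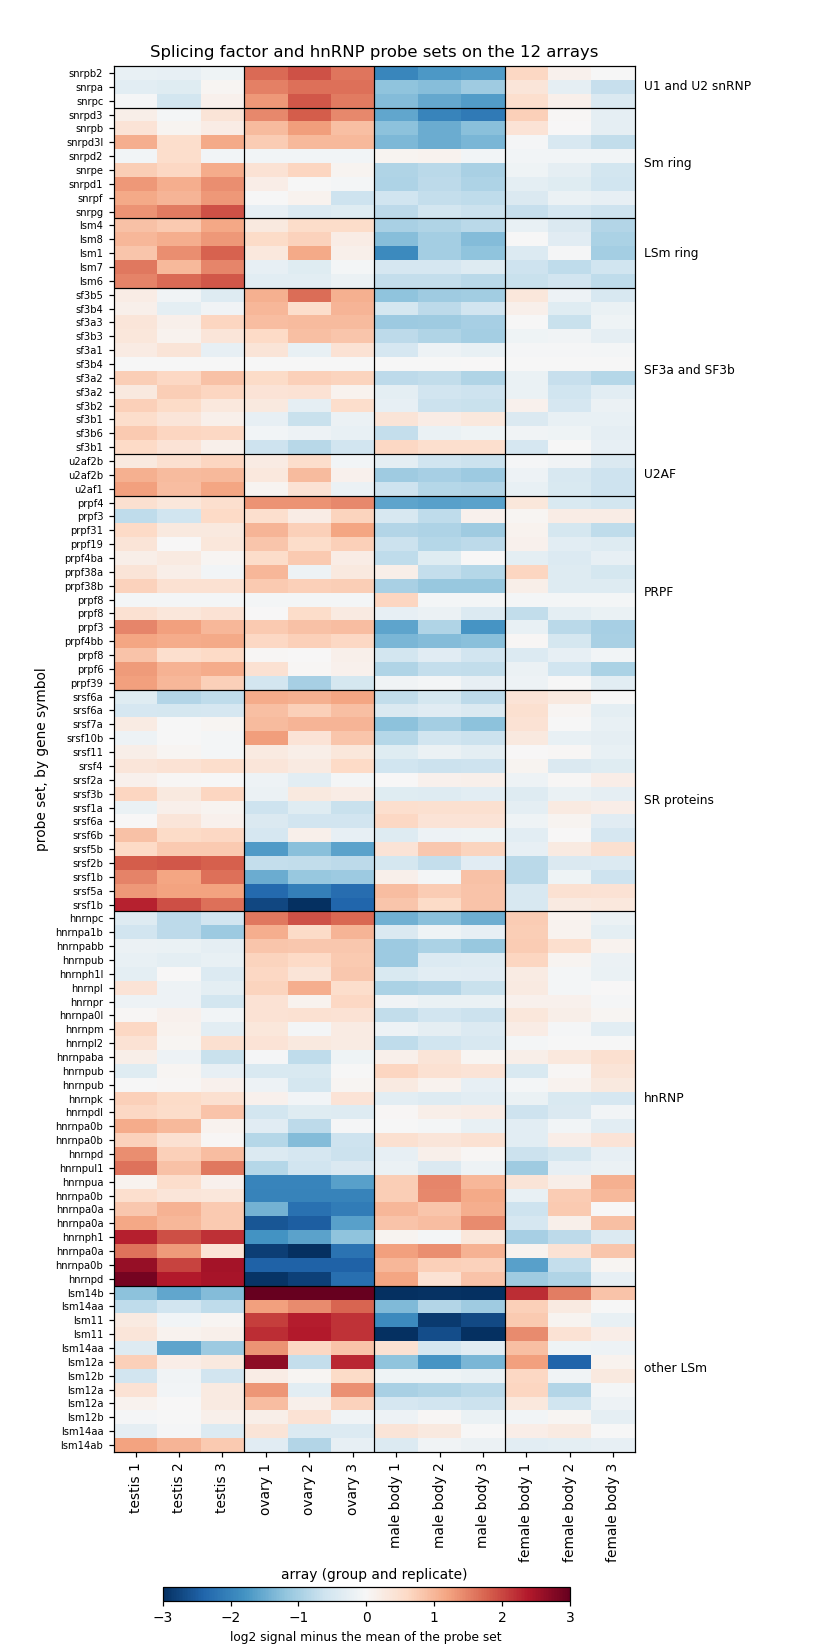
Heat map of the 100 member probe sets (rows, labelled by gene symbol and ordered by role) on the 12 arrays (columns). Colour gives the log2 signal, with a floor of 32, minus the mean of that probe set over the 12 arrays. The male body columns are mostly blue in the snRNP, LSm and PRPF rows, and the deepest blue in the SR and hnRNP rows lies in the ovary columns.

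Most members exceeded their male body level in the testis. Of 100 member probe sets 66 were higher in the testis and 5 were lower, where 29.2% of the whole array was called higher, 29.9% lower and 59.1% in either direction. The median log2 difference of the members was 0.96, against -0.12 over all probe sets tested. The arrays of testis and male body did not overlap in 77 of 100 members, where testis was apart and higher in 32% of all probe sets and apart and lower in 34.6%. The count of 5 lower members fell to 1 without male body 2, to 2 without male body 3 or testis 3, and to 3 without testis 2. With each array centred on its median 63 of 99 were higher and 6 lower, beside 27.7% and 32.2% of all probe sets.

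Between ovary and female body 38 of the 97 members tested were higher in the ovary and 13 lower, beside 28.2% and 29.5% of all probe sets (57.7% in either direction). The members' median was 0.43 and that of all probe sets -0.05. Centring each array on its median raised the median of all probe sets to 0.52. It gave 73 of 98 members higher and 10 lower, beside 45.9% and 22.7% of all probe sets. Quantile normalization gave 37 of 98 higher and 12 lower, beside 37.1% and 21.6%. The members' median stood 0.61 above that of all probe sets after centring, 0.49 without it and 0.13 after quantile normalization. With a mean signal of at least 200 in 1 group, 40 of 84 members were higher and 9 lower, beside 43.6% and 28.3%. The members' median was then 0.12 above that of all probe sets. Ovary marker sums were 31147 to 64618 in female body, against 79712 to 85734 in ovary. The part of ovary RNA in this comparison was not tested. The 2 gonad-body comparisons share no array. In both of them 33 of the 97 members tested in each were higher in the gonad, where 17.6% of all probe sets were, and 3 were lower in both gonads, where 19.3% were.

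Between testis and ovary the members lay on both sides. Of 98 members tested 38 were higher in testis and 30 lower, beside 42.5% and 24.4% of all probe sets (66.9% in either direction), and the median differences were 0.17 and 0.36. The arrays of the 2 gonads did not overlap in 72 of the 98 members, where testis was apart and higher in 49.9% of all probe sets and apart and lower in 26.4%. This split depended on scaling. With arrays centred on their medians the median of all probe sets moved to -0.15 and the members to 21 higher and 49 lower, and after quantile normalization it moved to -0.04 with 43 higher and 34 lower. The members' median lay 0.19 below that of all probe sets in the values as scaled by the authors, 0.42 below it after centring and 0.18 above it after quantile normalization. The medians of the Sm, LSm ring, SF3, U2AF, SR and hnRNP genes were above 0 in the values as scaled and below 0 after centring, while those of the U1 and U2 snRNP and other lsm genes were below 0 under all 3 scalings.

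Between the bodies 6 of 100 members were higher in male body and 24 lower, beside 18.0% and 12.9% of all probe sets (30.9% in either direction). The median was -0.29, against 0.27 over all probe sets. These counts fell whichever male body array was left out. Without male body 1, 2 or 3 the counts were 0 and 14, 1 and 15, and 0 and 13. The shares of all probe sets fell too, to 7.31% and 7.99%, 8.82% and 8.36%, and 5.51% and 6.98%. Without female body 2 the members' counts were 2 and 15, beside 6.23% and 8.07% of all probe sets, and without female body 3 they were 9 and 28. At an unadjusted p under 0.05 limma gave 9 members higher without male body 1 and 5 without male body 3, in place of the 0 after adjustment.

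**Figure D2:**
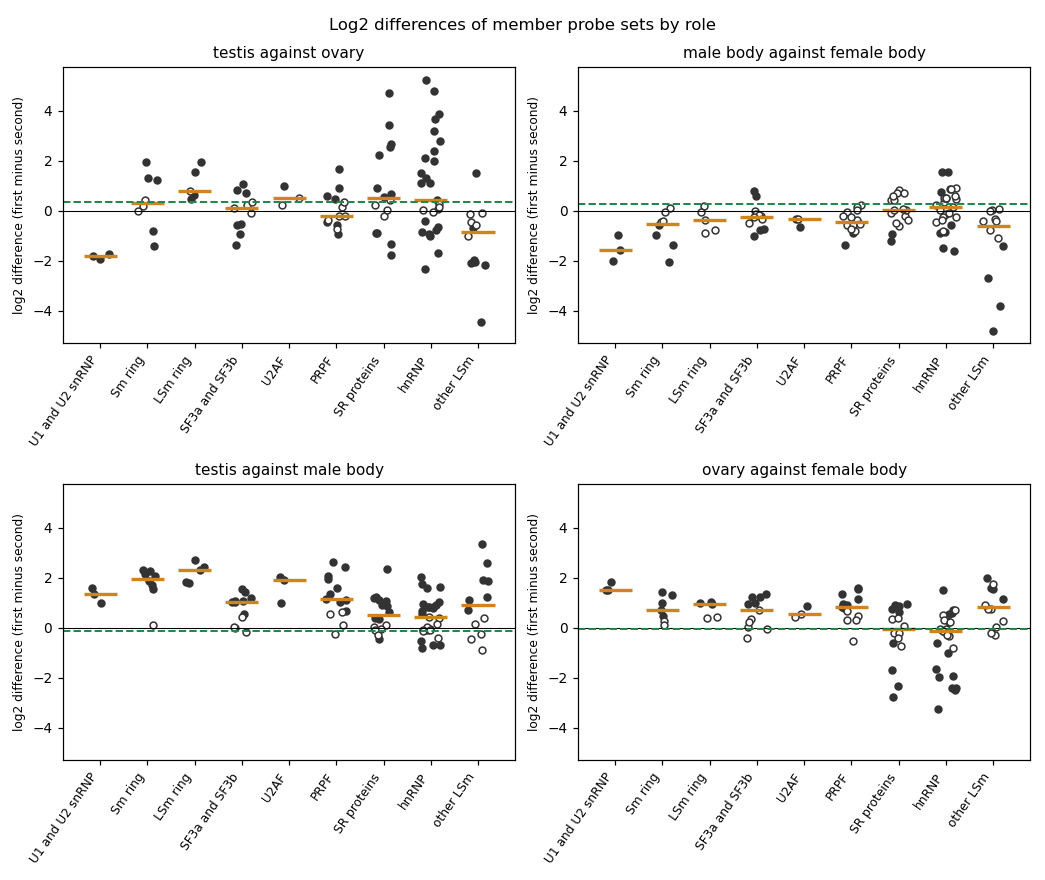
Log2 difference (vertical axis) of each member probe set in the 4 comparisons, by role (horizontal axis). Filled points were called at an adjusted p under 0.05, the orange bar is the median of the role and the dashed green line the median of all probe sets tested. In testis against male body every role's median lies above the green line, from 0.42 for hnRNP genes to 2.33 for the LSm ring.

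The U1 genes snrpa and snrpc and the U2 gene snrpb2 were highest in the ovary. The U2 gene snrpb2 had signals of 3708, 4311 and 3454 in ovary, 1753, 1254 and 1135 in female body, 972, 961 and 1038 in testis and 296, 349 and 360 in male body. The ovary arrays were above all others and the male body arrays below all others, with female body also above testis. The log2 difference of testis against ovary was -1.94 (SE 0.12, adjusted p 1.55e-05), and that of male body against female body -2.02 (adjusted p 0.00109). The U1 genes snrpa and snrpc likewise had differences of -1.81 and -1.73 between testis and ovary. All 3 were higher in either gonad than in the body of the same sex, snrpa by 1.81 in the ovary (SE 0.27, adjusted p 0.00137) and 0.98 in the testis.

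The Sm ring genes, whose products assemble into 1 ring, lay on both sides between the gonads. Of 8 probe sets 3 were higher in testis and 2 lower, shares near the 42.5% and 24.4% of all probe sets. Transcripts of snrpg, snrpf and snrpd1 were higher in testis than ovary, by 1.95, 1.33 and 1.22, while those of snrpd3 and snrpb were lower, with differences of -1.40 and -0.79. After median centring snrpf and snrpd1 were no longer called (0.53 and 0.42, adjusted p 0.13 and 0.062). The counts became 1 higher and 3 lower, beside 27.8% and 38.6% of all probe sets. The signals of snrpg were 2344, 2737 and 3481 in testis, against 691 to 775 in ovary, 568 to 653 in female body and 535 to 633 in male body. The testis was far above the other groups, and the ovary arrays lay above those of both bodies (testis against male body 2.27, adjusted p 3.47e-05, ovary against female body 0.27, adjusted p 0.21). The signals of snrpd3 were 3645, 4740 and 3676 in ovary and 309 to 455 in male body, with testis at 1294 to 1756 and female body at 1106 to 2201. Those last 2 groups overlapped.

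Of the 8 Sm probe sets 7 were higher in testis than in male body, with a median of 1.95, and 5 of the 7 tested were higher in ovary than in female body. Among all probe sets these shares were 29.2% and 28.2%. The exception in the testis was snrpd2, whose probe set exceeded the floor on only 1 testis and 2 male body arrays so that little could be measured. The brightest snrp probe set over the 12 arrays was that of snrpe, with mean signals of 4791 ± 893 in testis, 3557 ± 682 in ovary, 1442 ± 81.4 in male body and 2172 ± 304 in female body (SD, n = 3). Its gonads did not differ past the threshold (0.43, SE 0.19, adjusted p 0.079). The D3-like gene snrpd3l was 2.32 higher in testis than male body and 1.32 higher in ovary than female body, and its gonads were level at 0.01 (adjusted p 0.97).

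LSm ring genes were highest in the testis. The genes lsm6 and lsm7 belong to both the nuclear ring on U6 and the cytoplasmic ring in mRNA decay. The signals of lsm6 were 4686, 5372 and 5994 in testis, 1334 to 1471 in ovary, 976 to 1112 in female body and 946 to 1019 in male body. Testis was above all other arrays and the bodies overlapped. It was 1.95 higher than ovary (SE 0.12, adjusted p 1.65e-05) and 2.42 higher than male body (adjusted p 7.52e-06), or 5.36-fold. The nuclear ring gene lsm8 and the cytoplasmic ring gene lsm1 were 2.33 and 2.71 higher in testis than in male body and 0.94 and 1.03 higher in ovary than in female body.

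All 5 LSm ring probe sets were higher in testis than male body and 3 were higher in ovary than female body, beside 29.2% and 28.2% of all probe sets. None was called between the bodies, where 30.9% of all probe sets were. Of the 4 that were higher in testis than ovary, lsm6 and lsm7 held their direction under both other scalings and lsm4 and lsm8 turned to -0.33 and -0.17 after median centring. The median of the 5 in that comparison was 0.79, against 0.36 over all probe sets, and -0.01 against -0.15 after centring.

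The SF3a and SF3b genes, subunits of the U2 snRNP at the branch point, were mostly low in male body. Of 12 probe sets 8 were higher in testis than male body and 5 of 11 higher in ovary than female body, with none lower in either. Among all probe sets 29.2% and 28.2% were higher in these comparisons, and 29.9% and 29.5% lower. Quantile normalization, however, called 1 sf3b1 probe set lower in ovary (-0.70, adjusted p 0.016). Between testis and ovary 3 of 11 were higher and 4 lower, beside 42.5% and 24.4% of all probe sets. After median centring 0 of 12 were higher and 6 lower, beside 27.8% and 38.6%. The gene sf3b5 had signals of 1881, 2876 and 1881 in ovary, 645 to 1138 in female body, 688 to 1040 in testis and 387 to 434 in male body, and the testis was below the ovary (-1.36, SE 0.23, adjusted p 0.00147). Transcripts of sf3b4, sf3a3 and sf3b3 were also lower in testis than ovary (-0.94, -0.55 and -0.51).

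The largest subunit gene, sf3b1, whose product contacts the branch point, followed another order in both of its bright probe sets. The brighter one read 2323 to 3014 in testis and 2432 to 2750 in male body, and 1320 to 1847 in ovary and 1548 to 1796 in female body. Both male tissues were above both female tissues on every array, and gonad and body did not differ past the threshold in either sex (0.04 in males, adjusted p 0.84, and -0.07 in females, adjusted p 0.77). Male body was 0.61 higher than female body (adjusted p 0.031), with 0.79 in the other probe set (adjusted p 0.020), and testis 0.71 and 1.05 higher than ovary. After median centring the 0.71 became -0.09 and the 1.05 became 0.25 (adjusted p 0.59 and 0.17), and without any 1 of the male body arrays neither probe set was called between the bodies. A second probe set of sf3b4 exceeded the floor on 1 male body array alone.

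U2AF recognises the end of the intron before U2 binds. Both u2af1 and the 2 probe sets of u2af2b were higher in testis than male body, by 1.90, 2.04 and 0.99. The signals of u2af1 were 1383 to 1720 in testis, 642 to 982 in ovary, 471 to 625 in female body and 396 to 473 in male body. The testis was 1.00 higher than ovary (SE 0.19, adjusted p 0.00254), but 0.20 higher and not called after median centring (adjusted p 0.51). Ovary and female body did not differ past the threshold (0.55, adjusted p 0.068).

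PRPF genes are named after yeast precursor RNA processing mutants. Of 14 probe sets 10 were higher in testis than male body and 8 of 13 higher in ovary than female body, with none lower, beside 29.2% and 28.2% of all probe sets higher. In ovary prpf39 went the other way without passing the threshold (-0.53, adjusted p 0.060), and after quantile normalization it was called lower there (-0.76, adjusted p 0.00946). The tri-snRNP gene prpf4 had signals of 2160, 2161 and 2274 in ovary, 1070 to 1205 in testis, 577 to 1076 in female body and 274 to 280 in male body. Ovary was above all other arrays and male body below them. It was 1.60 higher in ovary than female body (SE 0.26, adjusted p 0.00194), 2.05 higher in testis than male body, and lower in testis than ovary (-0.94). Another tri-snRNP gene, prpf3, reached 998 to 1380 in testis and 862 to 957 in ovary, 6.20-fold and 2.91-fold the levels of the bodies (2.63, adjusted p 0.000111, and 1.54, adjusted p 0.00189).

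The kinase gene prpf4bb read 1227 to 1293 in testis and 221 to 240 in male body, a log2 difference of 2.44 (SE 0.14, adjusted p 9.22e-06), and 872 to 931 in ovary. The U1-associated gene prpf39 was 1.67 higher in testis than ovary (adjusted p 0.000272), with ovary the lowest group at 422 to 587. The bright probe set of prpf8, the scaffold of the catalytic core, was 1.14 higher in testis than male body (adjusted p 0.000375) and 0.59 higher in testis than ovary, although that value became -0.21 after median centring, and the 0.49 of prpf4bb between the same groups -0.31. Of the other prpf8 probe sets 1 read at or below the floor on 11 arrays. Between the bodies prpf4 and prpf38b were lower in male body (-1.39 and -0.88).

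Several SR protein genes differed widely between the gonads. Transcripts of srsf1b, a splicing activator gene, were 1845, 1428 and 1175 in testis, 664, 560 and 680 in male body, 268, 448 and 467 in female body and 56.7, 41.6 and 71.8 in ovary. The 4 groups did not overlap. Testis was 4.72 higher than ovary (SE 0.28, adjusted p 1.27e-05), or 26.3-fold, and the ovary was below the female body (-2.79, SE 0.35, adjusted p 0.000659). The second srsf1b probe set gave 2.68 between testis and ovary (adjusted p 2.85e-05), with -0.72 between ovary and female body (adjusted p 0.058). Transcripts of srsf5a were 3369 to 3615 in testis and 294 to 354 in ovary, with 1046 to 2019 in female body and 2513 to 2796 in male body, a testis to ovary ratio of 10.9 (3.45, SE 0.13, adjusted p 2.13e-06).

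The ovary was thus the low group for srsf1b and srsf5a, and also for srsf5b, which was 2.24 higher in testis than ovary and lower in ovary than female body (-1.68). For srsf2b the testis was instead the single high group, at 1570 to 1636 against 260 to 273 in ovary, 258 to 341 in female body and 274 to 358 in male body (testis against male body 2.35, adjusted p 1.6e-05, and ovary against female body -0.20, adjusted p 0.46). The ovary was the highest group for srsf7a, at 5659 to 5941 against 2882 to 3427 in testis, and for srsf10b. The testis differed from the ovary by -0.91 and -0.90 (adjusted p 0.000192 and 0.00869). The brightest srsf probe set, srsf11, had group means of 3304 ± 266 in testis, 3802 ± 212 in ovary, 2602 ± 182 in male body and 3037 ± 286 in female body, and only testis against male body was called (0.34, adjusted p 0.046).

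Of the 16 srsf probe sets 8 were higher in testis than ovary and 4 lower, shares near the 42.5% and 24.4% of all probe sets. After median centring 5 were higher and 7 lower, beside 27.8% and 38.6%. In testis against male body 10 were higher and 1 lower, where 29.2% and 29.9% of all probe sets were. In ovary against female body 5 were higher and 4 lower, beside 28.2% and 29.5%. After median centring 9 were higher and 3 lower there, beside 45.9% and 22.7%. Of the 16, srsf1a and 1 of 3 srsf6a probe sets turned from 0.57 and 0.69 to -0.23 and -0.11 in testis against ovary after median centring. In ovary against female body srsf1a turned from -0.61 to 0.09 after it. The 3 probe sets of srsf6a disagreed. The 2 brighter ones were lower in testis than ovary (-1.79 and -1.35), and the dimmest, with signals of 71.6 to 165 on all arrays, was higher, a direction that turned after quantile normalization too (-0.40). It was the only gene of the 16 with several probe sets to be called in opposite directions between testis and ovary.

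**Figure D3:**
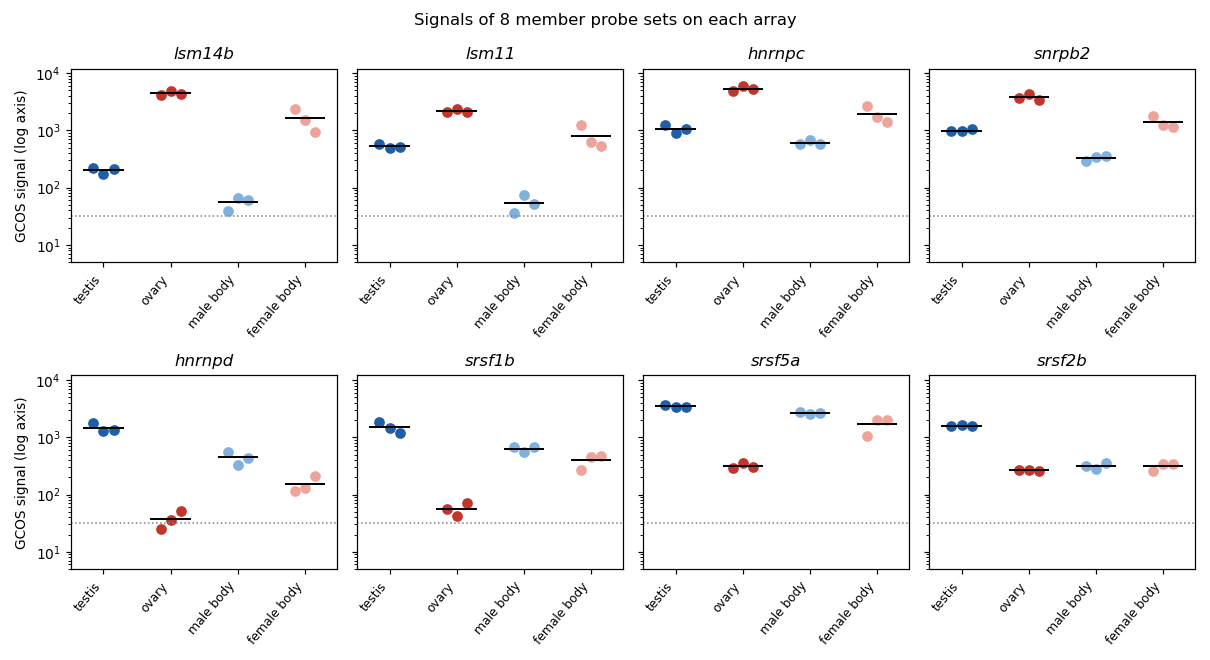
GCOS signal (vertical log axis) of 8 member probe sets on each array, by group (horizontal axis), with the group mean as a bar and the floor of 32 as a dotted line. The upper 4 genes are highest in ovary and lowest in male body, and of the lower 4 hnrnpd, srsf1b and srsf5a are lowest in ovary, while srsf2b is high in testis alone.

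The hnRNP genes held both the strongest testis-sided members and several that were higher in ovary. The gene hnrnpd, whose product binds AU-rich elements of mRNAs, had 1 probe set with signals of 1795, 1274 and 1355 in testis, 559, 331 and 442 in male body, 117, 132 and 207 in female body and 25.0, 35.4 and 51.1 in ovary. The groups did not overlap. The difference between testis and ovary was 5.24 (SE 0.26, adjusted p 6.11e-06), a 37.7-fold ratio that depends on the floor because 1 ovary array lay below it. The brighter hnrnpd probe set gave 1.53 (adjusted p 0.000364), with signals of 1827 to 2951 in testis and 721 to 842 in ovary. The G-tract binding hnrnph1 was 3.68 higher in testis than ovary (SE 0.22, adjusted p 1.45e-05), at 964 to 1281 against 73.1 to 110.

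All 3 hnrnpa0a and all 4 hnrnpa0b probe sets were higher in testis than ovary. For hnrnpa0a the differences were 3.89, 3.20 and 2.79, the last depending on the floor because 1 ovary array lay below it. The brightest of the 3 read 84.9 to 182 in ovary, 902 to 1499 in female body, 1739 to 2202 in male body and 1115 to 2602 in testis. The ovary stood apart and the testis overlapped both bodies. The difference of ovary against female body was -3.24 (SE 0.34, adjusted p 0.000285). For hnrnpa0b they were 4.80, 2.41, 1.32 and 1.13. In the first 2 the ovary arrays all lay at the floor, so testis was at least 27.8-fold and at least 5.30-fold higher, and female body at least 3.17-fold and at least 5.68-fold higher than ovary. Between testis and male body the first of these was higher and the second lower (1.57 and -0.70, adjusted p 0.000447 and 0.0355), the only gene called in opposite directions there, and the second call was lost without any 1 array of the 6 other than male body 1.

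Higher in ovary were hnrnpc, hnrnpa1b, hnrnpabb and others. The gene hnrnpc, whose product packages new transcripts on uridine tracts, had signals of 4780, 5929 and 5235 in ovary, 1401 to 2670 in female body, 918 to 1218 in testis and 578 to 667 in male body. The groups did not overlap. The difference of testis against ovary was -2.32 (SE 0.14, adjusted p 1.58e-05), and the gene was 1.51 higher in ovary than female body and 0.80 higher in testis than male body. The silencer-binding hnrnpa1b was lower in testis than in ovary (-1.70, adjusted p 0.000222) and than in male body (-0.55, adjusted p 0.028). The brightest hnrnp probe set, hnrnpa0l, had group means of 8743 ± 614 in testis, 11600 ± 103 in ovary, 5457 ± 286 in male body and 9837 ± 1022 in female body.

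Of 27 hnRNP probe sets 14 were higher in testis than ovary and 8 lower, beside 42.5% and 24.4% of all probe sets. After median centring 11 were higher and 13 lower, beside 27.8% and 38.6%, and hnrnpk turned from 0.43 to -0.37. In testis against male body 13 were higher and 4 lower, beside 29.2% and 29.9%. In ovary against female body 4 were higher and 9 lower, beside 28.2% and 29.5%. After median centring 14 were higher and 7 lower there, beside 45.9% and 22.7% of all probe sets, with hnrnpaba moving from -0.63 to 0.07. After quantile normalization 5 were higher and 5 lower, beside 37.1% and 21.6%. In the values as scaled by the authors, no probe set of the U1 and U2, Sm, LSm ring, SF3, U2AF or PRPF roles was lower in the gonad in either gonad-body comparison. The lower members there were hnRNP and SR genes. In testis they were hnrnpua (-0.80, adjusted p 0.031), hnrnpa0b, hnrnpub (-0.69, adjusted p 0.012), hnrnpa1b and srsf1a (-0.47, adjusted p 0.026). That hnrnpub probe set was near the floor, at 34.5 to 45.7 in testis and 58.7 to 68.8 in male body. Its call was lost after quantile normalization (-0.26, adjusted p 0.097). No other hnrnpub probe set was called there, and the brightest stood at 0.38. For hnrnpua the ovary had 2 arrays at the floor, so its difference from female body (-2.40, adjusted p 0.000658) depends on the floor.

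The remaining lsm genes act outside the U6 ring, and for lsm14b, lsm11 and lsm14aa the ovary was the high group. The gene lsm14b encodes a cytoplasmic RNA-binding protein of a family that represses translation of stored transcripts, as known in oocytes of the frog Xenopus. Its signals were 4174, 4891 and 4392 in ovary, 2397, 1506 and 946 in female body, 222, 176 and 210 in testis and 38.8, 67.0 and 60.0 in male body. The 4 groups did not overlap. Ovary was 22.2-fold above testis (testis against ovary -4.47, SE 0.14, adjusted p 1.26e-06) and female body 28.0-fold above male body (male against female body -4.81, SE 0.39, adjusted p 0.000167), the largest difference of any member between the bodies. Ovary was 1.57 higher than female body and testis 1.91 higher than male body.

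The U7 snRNP gene lsm11, which serves the processing of histone mRNA ends, had 2 probe sets with the same order. The brighter read 2054 to 2365 in ovary, 526 to 1225 in female body, 488 to 588 in testis and 36.6 to 72.9 in male body. Female body and testis overlapped, and male body was below all others. Testis was 10.1-fold above male body (3.34, SE 0.29, adjusted p 5.70e-05), and the difference of male body against female body was -3.82 (adjusted p 0.000901). The other probe set gave 2.59 and -2.71, with 1 male body array at the floor. The gene lsm14aa was lower in testis than ovary in 2 probe sets (-2.16 and -1.96, adjusted p 6.21e-05 and 0.00226), and another, at 25.4 to 55.5 on all arrays, was not called (-0.10).

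For lsm12a the spread within the female groups exceeded the difference between gonads. Its most variable probe set read 1088, 103 and 807 in ovary and 396, 29.1 and 183 in female body, against 193 to 278 in testis and 49.5 to 73.7 in male body. In each of its 3 probe sets the lowest ovary array was number 2 and the lowest female body array number 2. None of the 3 was called between testis and ovary (-0.45, -0.58 and -1.01, adjusted p 0.10, 0.30 and 0.32), and all 3 were higher in testis than male body, by 0.71, 1.10 and 1.85.

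Members that no comparison called included dim and bright probe sets. The dim ones, where low signal limits what can be seen, were those of snrpd2, sf3b4, prpf8, prpf3, lsm14aa and hnrnpub with signals below 100 on every array. Among the brighter ones were hnrnpm, sf3a1, srsf2a, lsm12b and prpf38a. The exon regulator gene srsf2a read 1343 to 1488 in testis, 1080 to 1308 in ovary, 1214 to 1551 in female body and 1360 to 1512 in male body, and its difference between testis and ovary was 0.23 (SE 0.12, adjusted p 0.14).

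The gonad-body difference was tested for a difference between the sexes on all 12 arrays. Ovary marker sums were 31147 to 64618 in female body, while testis marker sums in male body were 333 to 450. The part of ovary RNA in the differences between the sexes was not tested. It is called more testis-sided where testis minus male body exceeded ovary minus female body, and more ovary-sided in the reverse case. The gonad-body difference was more testis-sided in 39 of 100 member probe sets and more ovary-sided in 4. Among all probe sets these shares were 23.1% and 12.6% (35.7% in either direction). Some of the 39 were lower in ovary than female body without being higher in testis than male body. They were all hnrnpa0a probe sets, some of hnrnpa0b, hnrnpua and srsf5b. All 5 LSm ring probe sets, 5 of 8 Sm, 2 of 3 U2AF, 6 of 14 PRPF, 6 of 16 SR and 12 of 27 hnRNP probe sets were among the 39, as were 2 of 12 other lsm and 1 of 12 SF3 probe sets, but none of the 3 U1 and U2 snRNP probe sets. The counts depended on scaling, for members and for all probe sets. Quantile normalization gave 40 and 10 of 99 members, beside 18.0% and 20.0% of all probe sets. Median centring gave 16 and 19 of 100, beside 13.4% and 29.0%, with prpf38b and hnrnpl2 turned in sign, at -0.12 and -0.19. After that centring 1 LSm ring and 3 Sm probe sets were called more testis-sided, and the U2AF median was 0.38. Without female body 1, 7 members were more ovary-sided. The medians of members and of all probe sets were 0.42 and 0.07 in the values as scaled by the authors and -0.30 and -0.39 after median centring.

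The genes with the largest differences between the sexes were srsf1b, hnrnpd, hnrnpa0b, hnrnpa0a, hnrnph1 and srsf5a. For the first, testis was 2.31-fold above male body and ovary against female body gave -2.79, a difference of 3.99 on the log2 scale (SE 0.39, adjusted p 1.55e-05). A member was higher in testis than male body and at the same time lower in ovary than female body in 4 cases, namely srsf1b, hnrnpd, hnrnpa0b and srsf5a, and no member was the reverse. Taken singly, the first 2 calls covered 29.2% and 29.5% of all probe sets, and the share with both was not counted. The ovary calls of hnrnpd and hnrnpa0b were lost after quantile normalization (-0.63 and -0.84, adjusted p 0.12 and 0.091), and the testis call of srsf5a after median centring (0.29, adjusted p 0.056). For srsf1b, hnrnpd and hnrnpa0b these values came from dimmer probe sets. The brighter ones of srsf1b and hnrnpd were not called in ovary against female body (-0.72 and -0.04). The brightest of hnrnpa0b was not called in testis against male body (-0.04). Their differences between the sexes were 1.83, 1.07 and 0.98. Across members the 2 gonad-body differences had a Pearson r of 0.46 over 97 probe sets, and across all probe sets of 0.67 over 14031. These correlations are across probe sets, which share arrays, and are given as a description.

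**Figure D4:**
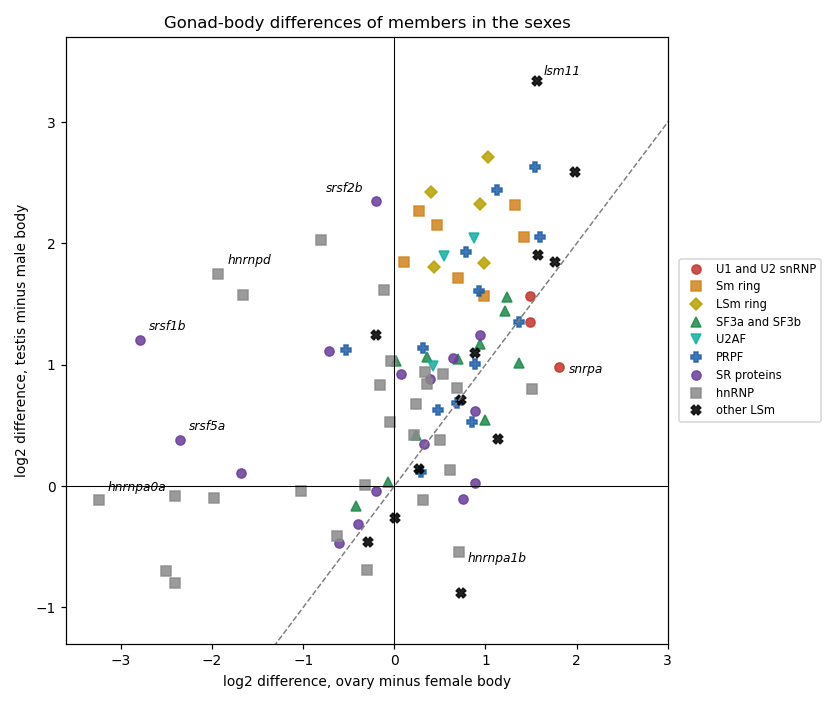
Log2 difference of ovary minus female body (horizontal axis) and of testis minus male body (vertical axis) for the member probe sets tested in both, with colours for role and a dashed line of equal difference. The LSm ring, Sm ring and U2AF points lie above the dashed line, and the points far to the left, such as srsf1b at -2.79 and hnrnpa0a at -3.24, are SR and hnRNP genes.

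The 24 probe sets lower in male body included the 3 U1 and U2 snRNP genes, 4 of 8 Sm genes, lsm14b and both lsm11 probe sets. In 19 of the 24 (79.2%) the 3 female body arrays fell in the same order as their summed ovary markers, highest on array 1, and among all probe sets lower in male body the share was 76.4%. Of the 6 members higher in male body 4 (66.7%) had the opposite order, against 56.0% of all such probe sets. The part of ovary RNA in these differences was not tested. The 6 higher members were hnrnpa0b (1.56), hnrnpd (1.56), hnrnph1 (0.85), hnrnpa0a (0.76) and the 2 sf3b1 probe sets, with adjusted p of 0.014 to 0.0499. For hnrnpa0b, hnrnpd and hnrnpa0a only 1 probe set each was called. The brightest of hnrnpa0b (0.35) and the brighter of hnrnpd (0.46) were not. All 6 of these limma calls were lost without male body 1 and without male body 3.

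Zebrafish carry many genes in duplicate, and 10 pairs of paralogs with symbols ending in a and b were members. Between testis and ovary 3 pairs were called in opposite directions, where 42.5% of all probe sets were higher and 24.4% lower. How often pairs of other genes were called in opposite directions was not counted. Transcripts of lsm14aa were lower in testis and those of lsm14ab higher (-2.16 and 1.49, adjusted p 6.21e-05 and 0.000461). Transcripts of srsf6a were lower and those of srsf6b higher (-1.35 and 0.90, adjusted p 3.58e-05 and 0.00458), but after median centring srsf6b was at 0.10 and not called (adjusted p 0.75). Those of hnrnpua were higher, by an amount that depends on the floor, and those of hnrnpub lower (2.12 and -0.94, adjusted p 9.25e-05 and 0.000186). In 3 further pairs both paralogs were higher in testis, namely hnrnpa0a and hnrnpa0b, srsf5a and srsf5b, and srsf1a and srsf1b, although srsf1a turned in sign after median centring.

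In the other 4 pairs at least 1 paralog was not called. They were srsf2a with srsf2b, prpf4ba with prpf4bb, lsm12a with lsm12b, and hnrnpaba with hnrnpabb. The signals of lsm14ab were 2581 to 3437 in testis, 819 to 1255 in ovary, 1195 to 1262 in female body and 1116 to 1386 in male body, so the testis alone was high. Between testis and male body 29.2% of all probe sets were higher and 29.9% lower. The only pair called in opposite directions there was srsf1a and srsf1b, at -0.47 and 1.12. Where a gene had several probe sets, these values are from the one with the highest mean signal.

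**Figure D5:**
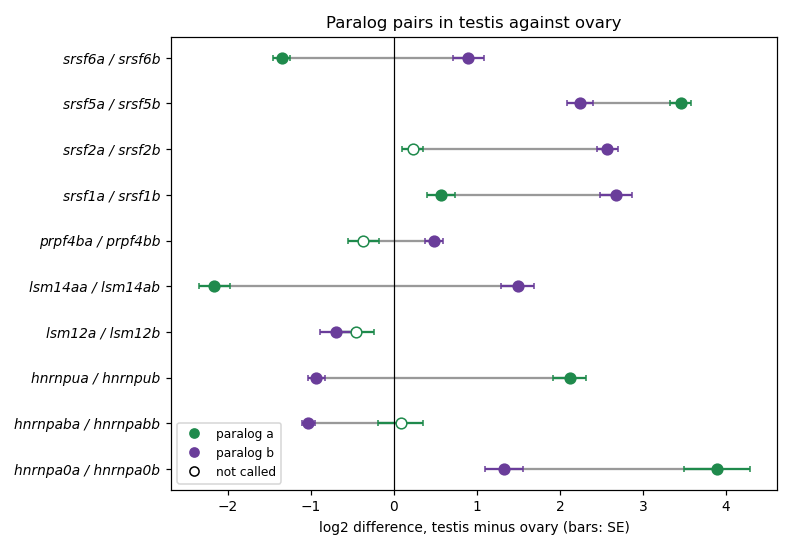
Log2 difference of testis minus ovary (horizontal axis, bars of 1 SE) for both paralogs of 10 pairs, using the brightest probe set of each gene. Filled points were called. The pairs srsf6a and srsf6b, lsm14aa and lsm14ab, and hnrnpua and hnrnpub have called points on opposite sides of 0. The pairs prpf4ba and prpf4bb, and hnrnpaba and hnrnpabb, also lie on opposite sides, with 1 paralog of each not called.

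Splicing genes whose symbols lie outside these names were taken from a separate list, of which 115 were on the array with 1 probe set each. Of these 80 were higher in testis than male body and 12 lower, beside 29.2% and 29.9% of all probe sets, and 61 were higher in ovary than female body and 12 lower, beside 28.2% and 29.5%. Between testis and ovary 34 of 114 were higher and 34 lower, beside 42.5% and 24.4%. Between the bodies 9 of 115 were higher in male body and 30 lower, beside 18.0% and 12.9%. All 12 genes listed under snRNP assembly were higher in both gonads, with medians of 1.75 in testis and 1.23 in ovary. For smn1 these differences were 1.70 and 0.49 (adjusted p 8.96e-05 and 0.0498), and for coil, the gene of the Cajal body protein coilin, 2.10 and 1.66. Of the 19 genes of the Prp19 complex and of later steps 17 were higher in testis and 17 in ovary than in the body. Of 37 other splicing regulators 14 were higher and 12 lower in testis than male body, and 9 higher and 11 lower in ovary than female body.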

How the data were processed

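Transcript levels were taken from 12 Affymetrix zebrafish arrays, 1 per sample. Per the study's methods and the submitters' processing notes, the authors computed an intensity signal per probe set in GCOS version 1.2 and scaled every array to the same mean after trimming 2% at each end, and these linear intensity values were deposited. The notes also name GCRMA and MAS5. The real-time PCR and other array algorithms of the study were not analysed here. Equal scaling means that a group with many undetected probe sets, here the ovary, can shift against the others, which is why other scalings were tried.

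Control probe sets (115 of 15617) were left out, leaving 15502, of which 10795 had 1 gene symbol in the platform annotation, 135 several and 4572 none. Signals under 32 were set to 32 and log2 transformed. Probe sets at the floor on all arrays compared were not tested. For every pairwise contrast, limma (version 3.58.1, R version 4.3.3) was run on the 6 arrays concerned, using lmFit and eBayes with trend. The contrast of gonad-body differences between sexes used all 12. P-values were adjusted by Benjamini and Hochberg over all probe sets tested, with a threshold of 0.05. Where all 3 arrays of a group were at the floor, the fold is given as a lower bound. The scripts were tested on simulated data with known differences. The number of arrays, 3 a group, limits the precision. Summaries and plots used Python 3.11.15, NumPy 2.4.6, pandas 2.3.3 and matplotlib 3.10.9.

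Named genes were the 6 members per comparison and direction with the largest log2 difference, if called and without overlap of groups, the brightest probe set of each name group, both members of paralog pairs, and members called in all 4 or in none of the pairwise comparisons. Other members, chosen after their values were seen, were named to describe each role. The members and lists were chosen with earlier results of these data known. Deviations from the group mean of gonad and body arrays with the same number correlated at 0.24 to 0.34 in each of 6 pairs over 8371 probe sets. In other pairs they correlated at -0.20 to -0.004, which is not independent, since the deviations within a group sum to 0. The numbers may thus pair gonad and body within a sex, which was not tested further. The main fits did not use such a pairing, and the replicate block did. Alternatives were array weights, a replicate block, another floor, other filters on dim probe sets, median centring or quantile normalization, omission of the trend, a joint fit, a plain 2-sample test on linear signals, 1 probe set per gene, and leaving out each array. For array weights, 3 fits gave a warning that the weights had not converged.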

Additional observations from a re-analysis of the deposited data

Results flagged for a closer look

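For the following results the gonad-body difference was tested for a difference between the sexes, in 1 limma fit on all 12 arrays, and it passed the threshold. The value is the log2 difference of testis against male body minus that of ovary against female body. Positive values were largest for srsf1b (3.99), hnrnpd (3.68), hnrnpa0b (3.24, a lower bound because all ovary arrays lay at the floor), hnrnpa0a (3.13), hnrnph1 (2.83) and srsf5a (2.74). In each of them the ovary was the lowest of the 4 groups. For the brightest probe sets of srsf1b, hnrnpd and hnrnpa0b the values were smaller, at 1.83, 1.07 and 0.98. Negative values were found for lsm14aa (-1.61), hnrnpa1b (-1.25) and both brighter probe sets of srsf6a (-0.87 and -0.86), with the ovary the highest group. The value of lsm14aa came from a dimmer probe set, and its brightest gave -0.75 and was not called (limma adjusted p 0.097). In all, 39 member probe sets had a more testis-sided difference and 4 a more ovary-sided one, beside 23.1% and 12.6% of all probe sets. After median centring the counts were 16 and 19, beside 13.4% and 29.0%. Ovary marker sums were 31147 to 64618 in female body, and the part of ovary RNA in these differences was not tested. The call for lsm14aa was lost without 8 of the 12 arrays, taken out 1 at a time.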

How the results depend on the processing

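Median centring gave 21 members higher and 49 lower in testis than ovary, beside 27.8% and 38.6% of all probe sets. In ovary against female body it gave 73 higher, beside 45.9%. The gonad-body difference was then more testis-sided in 16 members and more ovary-sided in 19, beside 13.4% and 29.0%. Quantile normalization gave 10 more ovary-sided members, beside 20.0%. Array weights gave 15 higher and 42 lower in male body than female body, beside 39.1% and 21.0% of all probe sets. In ovary against female body they gave 58 higher and 21 lower, beside 38.8% and 39.3%. The plain 2-sample test on linear signals gave 0 higher and 0 lower between the bodies (12 and 27 at an unadjusted p under 0.05). Among all probe sets it called 0.214% and 0.141% there. It gave 2 members lower in testis than male body and 7 lower in ovary than female body, beside 22.3% and 20.5%. With 1 probe set per gene fewer members are counted. Of 76 genes 3 were higher in male body than female body, 3 lower in testis than male body and 2 more ovary-sided. Of 75 tested 7 were lower in ovary than female body. A single fit of all 12 arrays gave 10 higher in male body than female body, beside 27.0% of all probe sets. It gave 3 lower in testis than male body, beside 30.5%. No filter on dim probe sets gave 3 higher in male body than female body, beside 12.4%. Apart from the smaller number of members with 1 probe set per gene, the cause of these changes was not tested.

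Leaving out each array in turn gave 35 to 40 higher and 27 to 32 lower in testis than ovary, 0 to 9 higher and 13 to 28 lower in male body than female body, 62 to 66 higher and 1 to 4 lower in testis than male body, 26 to 49 higher and 11 to 15 lower in ovary than female body, and 31 to 40 more testis-sided and 3 to 7 more ovary-sided (7 without female body 1). With 1 array fewer, a group of 2 was fitted. With the replicate block the counts were 65 higher and 6 lower in testis than male body, 40 and 13 in ovary than female body, and 39 and 4 for the sex difference. Between groups that share only a number they were 36 and 29 in testis against ovary and 4 and 21 in male body against female body, where hnrnph1, hnrnpa0a and 1 sf3b1 probe set lost their calls (adjusted p 0.058, 0.053 and 0.060). For the 57 largest member differences, named by rank in each comparison, 574 values kept their direction and call under the other settings and 29 kept the direction but lost the call, and 354 and 48 did so when an array was left out. None of these 57 reversed. In the pairwise comparisons they were picked for groups without overlap, so leaving out an array could not turn their direction. The replicate block, the joint fit and omission of the trend or the filter left the log2 difference unchanged, so only calls could change. Other called members turned in sign under median centring, as given with their values above. Signals near the floor limit what can be seen for the dim probe sets.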

Other observations

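Among splicing regulators outside the names above, the polypyrimidine tract binding paralogs ptbp1a and ptbp1b had opposite gonads. Transcripts of ptbp1a averaged 1267 ± 431 in testis and 126 ± 14.4 in ovary (3.27, limma adjusted p 7.46e-05, SD, n = 3), and those of ptbp1b 259 ± 20.5 and 870.1 ± 197 (-1.73, adjusted p 0.000267). The epithelial splicing regulator esrp1 was highest in the bodies, at 959 ± 194 in male and 682 ± 103 in female body, and lower in ovary than female body (-3.41, adjusted p 0.000271). Its paralog esrp2 was lower in testis than ovary (-2.09, adjusted p 0.00048).

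Genes listed with the exon junction complex, which marks spliced messages, were higher in testis than male body in 14 of 15 cases. They were higher in ovary than female body in 7, with none lower in either. Among all probe sets 29.2% and 28.2% were higher in these comparisons, and 29.9% and 29.5% lower. The genes gemin7 and coil, listed under snRNP assembly, were lower in testis than ovary (-2.15 and -1.96, adjusted p 1.47e-05 and 8.67e-05) and lower in male body than female body (-1.83 and -2.40, adjusted p 0.00802 and 0.00547).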
